A study of Mus musculus with 12 samples.

Results

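The genes described here are the mouse protein arginine methyltransferases Prmt1, Prmt2, Prmt3, Prmt5, Prmt6, Prmt7 and Carm1, together with Wdr77 and Clns1a, which encode protein partners of PRMT5. They were picked by symbol, by a rule that used no measured value although earlier results of these data were known, and are 9 of the 24982 gene symbols measured. Polyadenylated RNA was sequenced from B lymphocytes of the spleens of mice aged 6 weeks, in 12 libraries, labelled as 4 biological replicates in each of 3 groups. The first group was wild type (WT). The second carried the Eμ-Myc transgene, in which an immunoglobulin heavy-chain enhancer drives Myc in cells of the B lineage. The third, Eμ-Myc; PRPS2 KO, carried the same transgene and lacked PRPS2, one of the phosphoribosyl pyrophosphate synthetases, which feed nucleotide synthesis. No group had the PRPS2 knockout without the transgene. Whether the deletion was limited to B cells, how the lymphocytes were purified and how many animals went into a library are not given in the sources used here.

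Protein arginine methyltransferases move methyl groups from S-adenosylmethionine to the nitrogen atoms of arginine side chains. Type I enzymes (PRMT1, PRMT2, PRMT3, CARM1 and PRMT6) make asymmetric dimethylarginine, the type II enzyme PRMT5 makes the symmetric form, and the type III enzyme PRMT7 stops at monomethylarginine. PRMT5 works in a complex with WDR77, and CLNS1A brings it the Sm proteins, whose methylation precedes their loading onto spliceosomal RNA by the SMN complex. Lymphoma cells of Eμ-Myc mice are known for a high demand on PRMT5 and on splicing.

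Values are scaled coverage, which is the coverage per gene in the deposited files divided by 1 factor per library. The sum of deposited coverage ran from 1277305.5 to 1885768.9 per library, and 14900 to 16231 symbols were above 0. Read depth is unknown, so the error given is the spread over the 4 libraries of a group. Myc was higher in the Eμ-Myc libraries (1559 to 2302) than in WT (226.1 to 345.9). Prps2 was lower in the knockout libraries (16.2 to 18.28) than in WT (97.93 to 140) or Eμ-Myc (198.5 to 287), so both followed the labels. The summed level of 6 B-cell markers ran from 5817 to 11290 over the WT libraries, from 6725 to 8358 over Eμ-Myc and from 6194 to 6823 over the knockout libraries. Markers of T cells, NK cells and myeloid cells were also above 0 in all 12 libraries, and their levels are given beside the results they move with. In such bulk samples, fewer cells of a type and less RNA per cell cannot be told apart.

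Of the 9 genes, all of which passed the filter on low values in every comparison, 8 were higher and Prmt2 was lower in Eμ-Myc than in WT. In limma's test with Benjamini-Hochberg adjustment over 12723 genes, all 9 passed an adjusted p of 0.05. The 4 Eμ-Myc libraries lay entirely above the 4 WT libraries for the 8 genes and entirely below them for Prmt2. Such changes were common in this comparison: 30.4% of all genes tested were called higher and 24.7% were called lower. In 28.7% of genes every Eμ-Myc library was above every WT library, and in 22.8% every one was below. The median log2 fold change was 1.03 over the 9 genes and -0.01 over all genes tested.

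**Figure D1:**
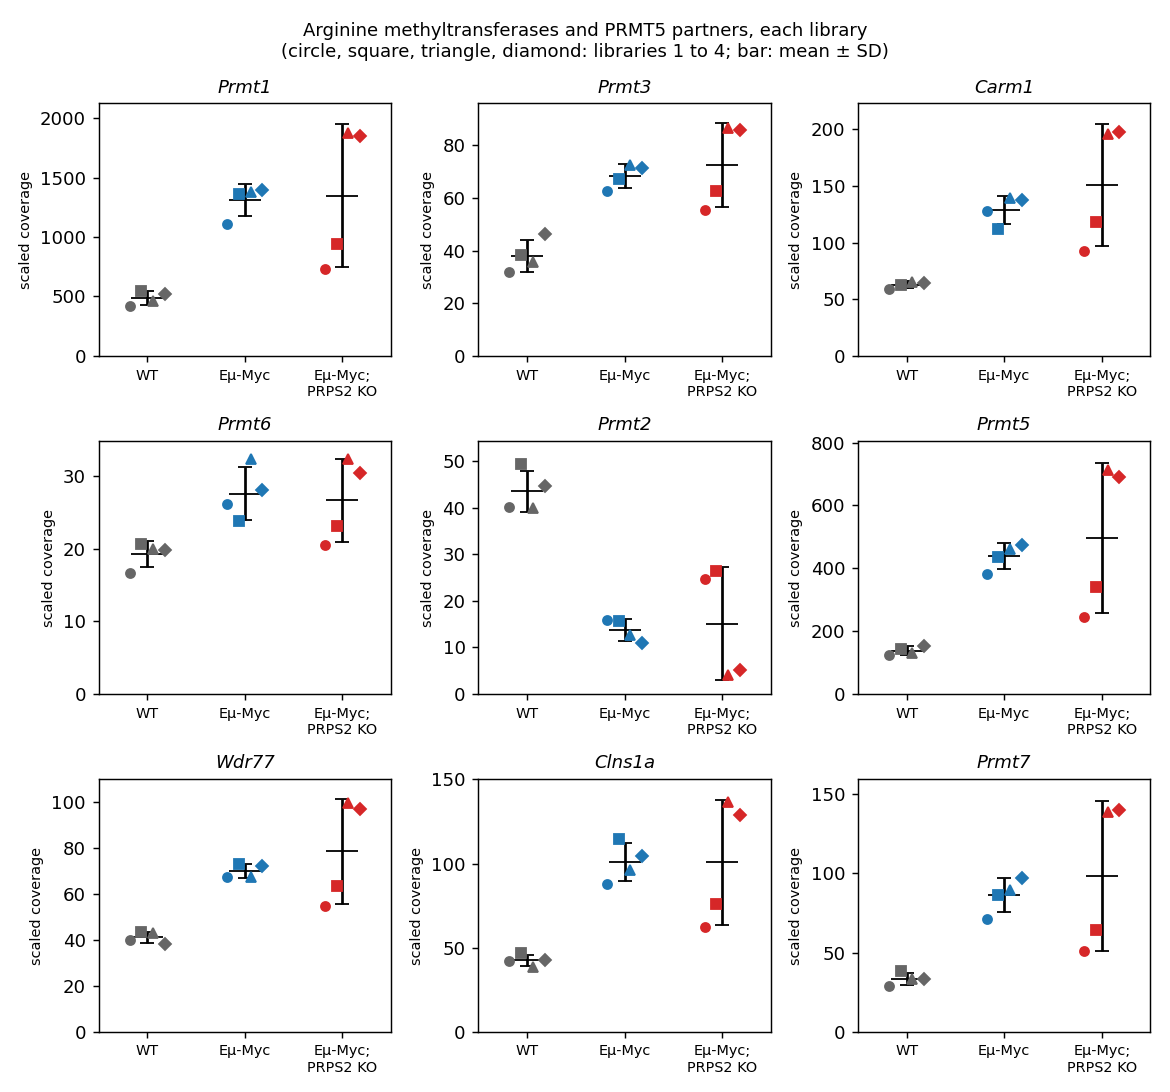
Scaled coverage (vertical axes, from 0) of the 9 genes in each library of WT, Eμ-Myc and Eμ-Myc; PRPS2 KO, with the marker shape giving the library number and the bar the mean ± SD of 4 libraries. The WT and Eμ-Myc points do not overlap in any of the 9 panels, and the knockout points of libraries 1 and 2 are separated from those of libraries 3 and 4.

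The type I enzymes come first. PRMT1 is the enzyme that makes most of the asymmetric dimethylarginine of mammalian cells. In WT libraries 1 to 4 Prmt1 had 420.5, 549.3, 462.4 and 520.2 (mean 488 ± 57.8, SD, n = 4). In Eμ-Myc it had 1111, 1365, 1382 and 1397 (1314 ± 136). Every Eμ-Myc library was above every WT library, and library 1 was lower than the other three, which lay close together. The ratio of the means was 2.69 and the log2 fold change was 1.43 (SE 0.12), with a limma adjusted p of 1.63e-05. Prmt1 was the gene with the highest coverage of the 9 in each group, and its mean over the 12 libraries was at percentile 98.4 of 12956 genes.

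The gene is on chromosome 7 (44975989 to 44986568, minus strand, GRCm38), with 3425 exonic bases in GENCODE M21. A stretch of its promoter is shown because the data set compares libraries that differ in Myc, and Myc binds the hexamer CACGTG, which reads the same on both strands. Capitals mark that hexamer in the RefSeq sequence at chr7:44986569-44986641 (GRCm38.p6, minus strand), where it starts 181 bases before the RefSeq transcription start. The GENCODE gene given above begins farther upstream, right next to this stretch.
Prmt1: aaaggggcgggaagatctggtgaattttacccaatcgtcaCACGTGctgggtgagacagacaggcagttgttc

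PRMT3 is a cytosolic enzyme that methylates a protein of the small ribosomal subunit. Prmt3 had 32.02, 38.34, 35.87 and 46.41 in WT (38.2 ± 6.09, SD, n = 4). The Eμ-Myc libraries had 62.71, 67.14, 72.72 and 71.31 (68.5 ± 4.51). All 4 were above the highest WT library, number 4. The means stood at a ratio of 1.79, and the log2 fold change was 0.85 (SE 0.13, limma adjusted p = 0.000422). Prmt3 lies on chromosome 7 as well (49778346 to 49858265, plus strand, 5996 exonic bases). A CACGTG sits 13 bases before its RefSeq start, at chr7:49778333-49778362 (GRCm38.p6, plus strand), where it partly overlaps what GENCODE counts as a Prmt3 UTR. It is shown in capitals.
Prmt3: gccccctacgccCACGTGacccggaagcgc

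CARM1 is a transcriptional coactivator that methylates histones and splicing and chromatin factors. Carm1 had 59.09, 62.81, 65.24 and 64.75 in WT (63.0 ± 2.79, SD, n = 4). In Eμ-Myc it had 128.1, 112, 139.1 and 137.1, all above the WT range. The log2 fold change was 1.03 (SE 0.098, limma adjusted p = 3.30e-05), with a ratio of means of 2.05. Carm1 (chromosome 9, 21546894 to 21592623, plus strand, 4852 exonic bases) shares 21.1% of its exonic bases with Yipf2 on the opposite strand. Whether counting used the strand is not given in the sources used here, and Yipf2 went the other way, with means of 101 and 72.0 in the respective groups.

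PRMT6 is a nuclear enzyme known mainly for marking histones. Prmt6 had 16.71, 20.72, 20.05 and 19.91 in WT against 26.2, 23.84, 32.36 and 28.16 in Eμ-Myc. The groups did not overlap, though Eμ-Myc library 2 was near the top of the WT range. This was the smallest increase of the 9 genes, with a ratio of means of 1.43 and a log2 difference of 0.50 (SE 0.13, limma adjusted p = 0.00994). Under scaling by total coverage, Prmt6 no longer passed (limma adjusted p = 0.0980), whereas its adjusted p was as low as 0.00072 under another of the alternatives. Prmt6 lies on chromosome 3 (110246109 to 110250998, minus strand, 4197 exonic bases), and an antisense transcript, C130013H08Rik, covers 23.4% of its exonic bases, so reads of the pair may be mixed.

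PRMT2, a coregulator of nuclear receptors with weak methyltransferase activity, was the exception. Prmt2 had 40.1, 49.41, 40.01 and 44.73 in WT (43.6 ± 4.48, SD, n = 4). In Eμ-Myc it had 15.89, 15.65, 12.63 and 10.93 (13.8 ± 2.41). All Eμ-Myc libraries were below all WT libraries by a wide gap. WT exceeded Eμ-Myc 3.16-fold by the means, and the log2 fold change was -1.64 (SE 0.15, limma adjusted p = 2.43e-05). That placed Prmt2 at percentile 3.02 of the fold changes of all genes tested. The gene is on chromosome 10 (76207222 to 76237865, minus strand, 3381 exonic bases).

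Markers of other lymphocytes moved in the same direction as Prmt2. The summed level of 6 T-cell markers was 353.4 to 1887 in WT and 75.14 to 109.7 in Eμ-Myc, and that of 5 NK-cell markers was 265.3 to 1198 and 70.29 to 206.3. All 6 and all 5 were called lower in Eμ-Myc by limma. The part of these cells in the Prmt2 value was not tested. Markers of proliferating cells moved with the other 8 genes: their sum over 6 genes was 301 to 365.5 in WT and 1406 to 1936 in Eμ-Myc, with all 6 called higher, and their part in those results was not tested either.

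PRMT5 is the main source of symmetric dimethylarginine, and Prmt5 had the largest increase of the 9 genes. It had 122.6, 144.1, 128.7 and 153.8 in WT (137 ± 14.2, SD, n = 4). In the Eμ-Myc libraries the values were 383.2, 436.7, 462.7 and 474.8 (439 ± 40.7). The lowest Eμ-Myc library, number 1, was far above the highest WT library, number 4. The ratio of the means was 3.20, and the log2 fold change was 1.68 (SE 0.11, limma adjusted p = 4.83e-06). This increase was at percentile 95 of all genes tested. Percentiles of Prmt1, Prmt7 and Clns1a were 93.4, 92.7 and 91.5, and those of Carm1, Prmt3, Wdr77 and Prmt6 were 87.8, 84.0, 81.8 and 72.6.

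Prmt5 lies on chromosome 14 (54507187 to 54517525, minus strand, 3958 exonic bases). The 195 bases just upstream of the annotated gene, at chr14:54517526-54517720 (GRCm38.p6, minus strand), are shown because the gene with the largest increase had no CACGTG in its window. They hold neither CACGTG nor the related CACGCG. Capitals mark CCAAT on either strand (ATTGG on the strand shown), the box bound by the factor NF-Y, which was looked for after the sequence had been seen.
Prmt5: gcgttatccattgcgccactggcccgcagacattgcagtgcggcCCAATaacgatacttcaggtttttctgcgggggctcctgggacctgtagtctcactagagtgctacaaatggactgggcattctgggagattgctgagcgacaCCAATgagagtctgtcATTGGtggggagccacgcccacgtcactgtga
The stretch has 3 such boxes, and the whole 300-base RefSeq window of Prmt5 has 4. CCAAT was in 4 of the 8 windows found for these genes: Prmt1 had 3, Prmt3 had 1, and so had Prmt2, the gene that fell. Of 32851 RefSeq windows of that length, 37.41% held at least 1 and 3.37% held at least 3.

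WDR77 is the WD-repeat protein that binds PRMT5 and is needed for its activity. Wdr77 had 39.86, 43.31, 42.83 and 38.02 in WT (41.0 ± 2.51, SD, n = 4). In Eμ-Myc it had 67.53, 72.87, 67.38 and 72.21 (70.0 ± 2.95). Both groups were tight and far apart. The ratio of means was 1.71, and the change on the log2 scale was 0.77 (SE 0.090, limma adjusted p = 0.000108). Wdr77 (chromosome 3, 105959369 to 105970037, plus strand, 4841 exonic bases) shares 6.96% of its exonic bases with Atp5f1 on the opposite strand, which averaged 404 over WT and 671 over Eμ-Myc, and 28.7% with Gm42890 on its own strand.

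CLNS1A (pICln) hands Sm proteins to the PRMT5 complex. Clns1a had 41.9, 46.69, 38.5 and 42.83 in WT (42.5 ± 3.37, SD, n = 4), and 88.05, 114.6, 96.25 and 104.7 in Eμ-Myc (101 ± 11.4). The groups were separate, and library 2 was the highest in each. Its ratio of means was 2.38 and its log2 fold change 1.23 (SE 0.11, limma adjusted p = 2.34e-05). Clns1a is on chromosome 7 (97696634 to 97720796, plus strand, 3856 exonic bases).

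Both partner genes had a CACGTG in their promoter windows, shown in capitals. That of Wdr77, at chr3:105959495-105959524 (GRCm38.p6, plus strand), starts at base 10 of the RefSeq transcript and lies in a UTR of Wdr77 and of Atp5f1 on the other strand. That of Clns1a, at chr7:97696503-97696588 (GRCm38.p6, plus strand), starts 114 bases upstream of the RefSeq start, in an exon of the antisense transcript Rsf1os2.
Wdr77: gcagaggtacacCACGTGtgcggtccctcc
Clns1a: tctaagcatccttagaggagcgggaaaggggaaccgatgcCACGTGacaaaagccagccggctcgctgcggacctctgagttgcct
Promoter windows from RefSeq, from 250 bases before to 50 bases after the start, were used for 8 of the 9 genes, and that of Carm1 was not used here. CACGTG was in 4 of the 8 windows (Prmt1, Prmt3, Wdr77 and Clns1a), against 7.15% of 32851 windows and 9.93% of 12701 windows of genes tested here. CACGCG, searched on both strands, was in 2 of the 8 (Prmt3 and Prmt7), against 9.27% and 16.75%. Of the 4 genes with the largest increases, Prmt1 and Clns1a had CACGTG, and Prmt5 and Prmt7 did not. These are matches of letters, and no binding was measured.

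PRMT7 is the enzyme that makes monomethylarginine. Prmt7 had 29.11, 38.25, 33.42 and 33.21 in WT (33.5 ± 3.74, SD, n = 4). The Eμ-Myc libraries had 71.5, 86.34, 89.47 and 97.1 (86.1 ± 10.7). Each was above all WT libraries, with library 1 the lowest. The log2 fold change was 1.35 (SE 0.13, limma adjusted p = 2.86e-05) and the ratio of means 2.57. The gene is on chromosome 8 (106210936 to 106252794, plus strand, 6125 exonic bases).

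**Figure D2:**
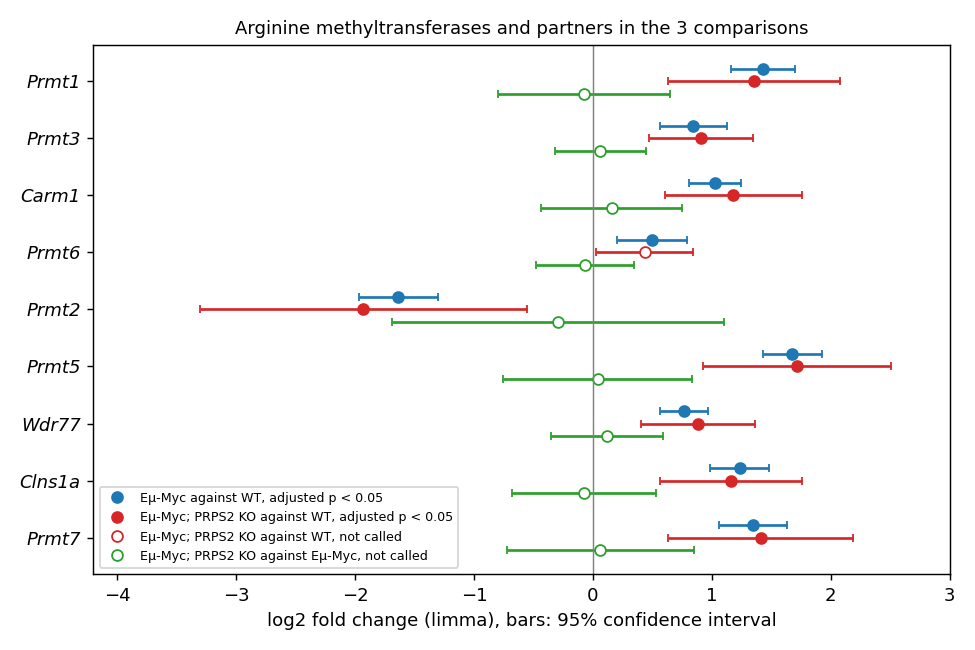
Log2 fold change of each gene in the 3 comparisons, with bars for the 95% confidence interval and filled circles for a limma adjusted p under 0.05. Against WT, Prmt5 is farthest to the right in both comparisons (1.68 and 1.71) and Prmt2 lies left of 0, whereas every interval for the knockout group against Eμ-Myc includes 0.

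Because the genes rose by different amounts, their proportions shifted. The coverage of Wdr77 relative to Prmt5 in the same library was 0.325, 0.301, 0.333 and 0.247 in WT and 0.176, 0.167, 0.146 and 0.152 in Eμ-Myc. All Eμ-Myc ratios were below all WT ratios. Wdr77 shares exonic bases with Atp5f1 and Gm42890, and the part of their reads in this ratio was not tested. Clns1a relative to Prmt5 went from 0.311 ± 0.0277 in WT to 0.23 ± 0.0233 in Eμ-Myc (SD, n = 4), again without overlap. An exact two-sided permutation test over the 70 arrangements of the 8 libraries gave p = 0.0286 for each ratio, the smallest it can give (adjusted p = 0.0571 over 8 such tests). It was added after the values were seen. Groups without overlap always give this p, so the test adds nothing to the lack of overlap. The adjustment does not cover the choice of the ratios and shares tested. Between the knockout group and Eμ-Myc the exact p was 0.657 for Wdr77 and 0.457 for Clns1a relative to Prmt5. With same-numbered libraries as pairs, an exact two-sided sign-flip permutation test, added after the values were seen, gave 0.625 and 0.375, where 4 pairs can give no p below 0.125. Clns1a relative to Wdr77 averaged 1.04 ± 0.0982 over WT and 1.44 ± 0.11 over Eμ-Myc.

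Within the summed coverage of the 7 methyltransferases, Prmt5 held 16% to 17.4% in WT and 20.7% to 21.4% in Eμ-Myc. Prmt1 held 59.2% ± 1.08 in WT against 63.2% ± 1.24 in Eμ-Myc (SD, n = 4), and these ranges did not overlap either. The share of Prmt2 went from 5.07% to 5.57% in WT to 0.493% to 0.884% in Eμ-Myc. Shares of Prmt3 and Prmt6 were also lower in every Eμ-Myc library, although both genes rose in level, since Prmt1 and Prmt5 rose more. The Prmt7 share overlapped between the groups (4.07% ± 0.229 and 4.13% ± 0.173). For the shares of Prmt5 and Prmt2 the exact permutation p was again 0.0286 (adjusted p = 0.0571), as it must be for groups without overlap. Prmt5 relative to Prmt2 was 2.92 to 3.44 in WT and 24.1 to 43.5 in Eμ-Myc. The Prmt1 share was 59.6% to 61.6% in the knockout libraries, below the 61.8% to 64.8% of Eμ-Myc. This difference was not tested. Shares of the other methyltransferases overlapped between the knockout group and Eμ-Myc.

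**Figure D3:**
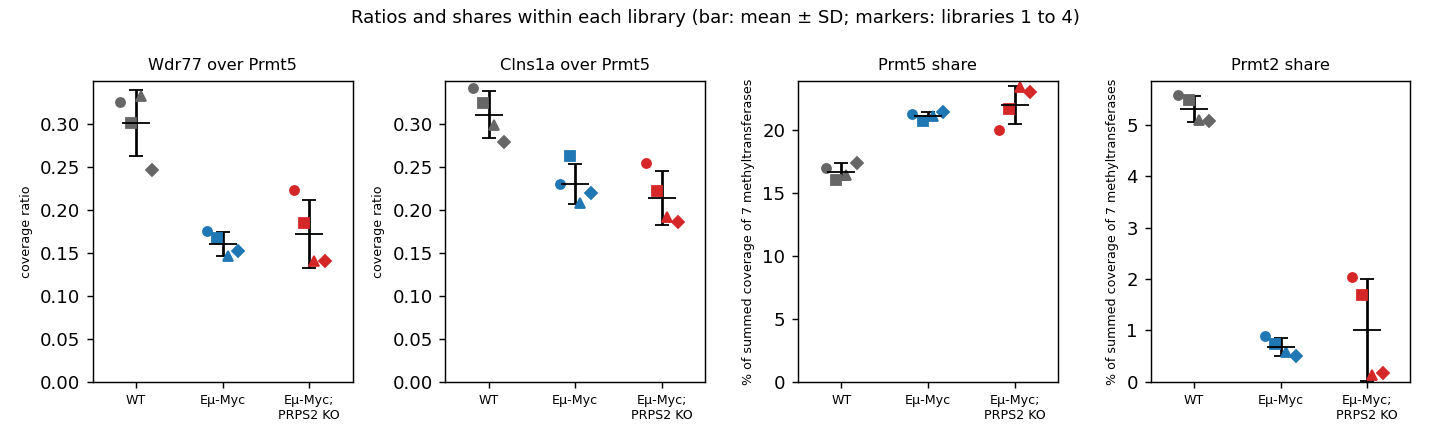
Coverage ratios of Wdr77 and Clns1a to Prmt5, and the shares (%) of Prmt5 and Prmt2 in the summed coverage of the 7 methyltransferases, for each library, with the bar as mean ± SD of 4 libraries. In all 4 panels the Eμ-Myc points lie apart from the WT points, and the Prmt2 share in the knockout group splits between 1.68% or more in libraries 1 and 2 and 0.17% or less in libraries 3 and 4.

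The order of the mean coverages in WT was Prmt1, Prmt5, Carm1, Prmt2, Clns1a, Wdr77, Prmt3, Prmt7 and Prmt6. Neighbours from Prmt2 down to Prmt7 overlapped between libraries, and the other neighbours did not. In Eμ-Myc the order was Prmt1, Prmt5, Carm1, Clns1a, Prmt7, Wdr77, Prmt3, Prmt6 and Prmt2, with overlap between neighbours from Carm1 to Prmt3. Prmt2 thus moved from the fourth place to the last. Whether the coverage was divided by gene length is not given in the sources used here, so the order is one of deposited coverage and not of transcript numbers. Over 12825 genes, log2 coverage rose by 0.183 per unit of log2 exonic length.

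PRPS2 deletion on the Eμ-Myc background was addressed by setting the knockout group against Eμ-Myc. None of the 9 genes passed limma's test (adjusted p = 1.00 for each), none had an unadjusted p under 0.05, and all 9 overlapped between the groups. Over 12551 genes, 0.00797% were called, which is 1 gene, Prps2 itself. An unadjusted p under 0.05 was reached by 0.964% of genes, and 1.53% did not overlap. The log2 fold changes were 0.04 for Prmt5 (95% interval -0.75 to 0.83), -0.07 for Prmt1 (-0.80 to 0.65), 0.16 for Carm1 (-0.43 to 0.75) and 0.06 for Prmt7 (-0.72 to 0.85). Prmt3, with 0.06 (-0.32 to 0.44), and Prmt6, with -0.06 (-0.48 to 0.35), had the narrowest intervals. The intervals of Wdr77 (0.12, -0.35 to 0.59) and Clns1a (-0.07, -0.68 to 0.53) also included 0. The interval of Prmt2 was the widest (-0.29, -1.69 to 1.10). A difference of the size of the Prmt6 increase in Eμ-Myc (0.50) lies within the intervals of Prmt5, Prmt1, Prmt7, Carm1, Wdr77, Clns1a and Prmt2, so these values do not show that the groups were alike.

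The width came from the knockout libraries, which differed from each other far more than the other libraries did. Prmt5 had 244.6, 341.6, 711.6 and 689.6 in knockout libraries 1 to 4 (497 ± 239, SD, n = 4). Libraries 1 and 2 were below all Eμ-Myc libraries, and libraries 3 and 4 were above them all. Prmt1 followed with 732, 938.1, 1875 and 1847 (1348 ± 598), and Prmt7 with 50.98, 64.4, 138.9 and 140 (98.6 ± 47.5). Both had the same split around the Eμ-Myc range as Prmt5.

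The partner genes split in the same way. Wdr77 had 54.53, 63.26, 99.46 and 96.74 in the knockout libraries (78.5 ± 22.9), and Clns1a had 62.35, 75.7, 136.4 and 128.6 (101 ± 37.2). For both, libraries 1 and 2 were below the Eμ-Myc range and libraries 3 and 4 above it. Carm1 had 92.41, 118.2, 195.5 and 197.9, and Prmt3 had 55.55, 62.74, 86.59 and 85.87. In these the second library was within the Eμ-Myc range. Prmt6, with 20.61, 23.23, 32.41 and 30.51, varied least, and its first library was within the WT range.

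Prmt2 ran in the opposite direction. It had 24.78 and 26.44 in knockout libraries 1 and 2, above all Eμ-Myc libraries and below all WT libraries. In libraries 3 and 4 it had 4.107 and 5.103, below every other library of the series. Prmt5 relative to Prmt2 was therefore 9.87 and 12.9 in the first pair and 173 and 135 in the second.

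The same split can be put on a scale from the WT mean (0%) to the Eμ-Myc mean (100%) of each gene in log2 units. Prmt5 stood at 49.9%, 78.6%, 142% and 139% in knockout libraries 1 to 4. Prmt2, whose scale runs downward, stood at 48.7%, 43%, 199% and 181%. The median of the 9 genes was 48.7%, 69.7%, 147% and 139%, and Myc itself was at 72.1%, 95%, 124% and 128%. Myc coverage was 1099, 1718, 3017 and 3282 in these libraries, so its order was close to that of the 8 genes. The SD of log2 coverage in the knockout group had a median of 0.557 over the 9 genes and 0.386 over all genes tested, against 0.158 and 0.214 for Eμ-Myc and 0.144 and 0.216 for WT. It ran from 0.306 for Prmt6 to 1.37 for Prmt2.

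**Figure D4:**
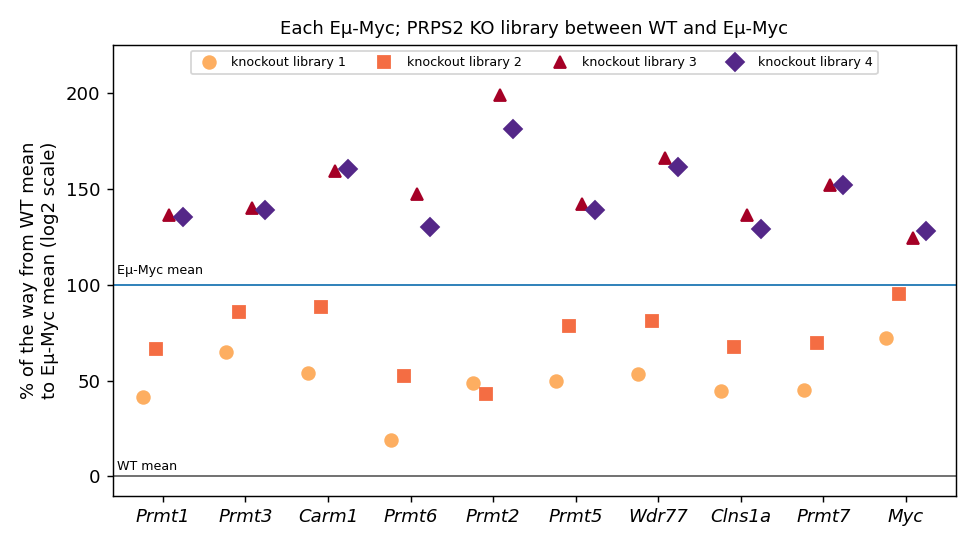
Position of each knockout library on the log2 scale from the WT mean (0%) to the Eμ-Myc mean (100%) of each of the 9 genes and of Myc, 1 point per library. For every gene libraries 1 and 2 lie under 100% and libraries 3 and 4 over it, with Prmt2 the farthest over at 199%.

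Cell type markers differed between these libraries as well. The T-cell sum was 435.5 and 459.1 in knockout libraries 1 and 2 and 10.77 and 10.32 in libraries 3 and 4, and the NK-cell sum was 473.9, 355.8, 19.32 and 17.2. The myeloid sum over 6 genes was 15230, 11370, 2987 and 1302, and the sum of 5 plasma-cell genes was 492, 594.4, 244.7 and 274.5. The sum of proliferation genes went the other way, with 837.4, 1145, 2481 and 2465, and the B-cell sum stayed between 6194 and 6823. The plasma-cell genes did not move together. Jchain (184, 234, 2.0 and 2.44), Xbp1 and Prdm1 were lower in libraries 3 and 4. Irf4 (113, 136, 139 and 168) and Sdc1 were higher there. Across the knockout libraries the T-cell, NK-cell, myeloid and plasma-cell sums moved in the direction of Prmt2. The proliferation sum moved in that of the rest of the 9 genes. The part of these sums in the result was not tested. The labels give no batch for the libraries.

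Weighting libraries by their fit to the model changed the picture. limma's library quality weights gave knockout libraries 1 to 4 weights of 0.0817, 0.129, 3.20 and 7.76, so that within the knockout group the last pair counted most, and 8 of the 9 genes were then called (7 higher and Prmt2 lower), as were 59.4% of all genes tested. Without weights, leaving out any 1 of the 8 libraries left 0 genes called, but the sign of 8 of the 9 fold changes depended on which library was left out.

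Against WT, the knockout group had 7 of the 9 genes higher and Prmt2 lower by limma, and the same 8 did not overlap with WT. Of 12692 genes tested, 19.7% were called higher and 9.6% lower, and 22.2% and 14.9% did not overlap in the respective direction. The median log2 fold change was 1.16 over the 9 genes and -0.01 over all. All 6 proliferation markers were also called higher here (median log2 fold change 3.05). The T-cell and NK-cell markers had medians of -3.26 and -2.51, with 0 called in each list. Their part in these results was not tested. This comparison uses the same WT libraries as the first, so the pair is not independent. The log2 fold change of Prmt5 was 1.71 (SE 0.34, limma adjusted p = 0.0173), beside 1.68 for Eμ-Myc against WT. Prmt1 had 1.35 (SE 0.32) beside 1.43, Prmt7 1.41 (SE 0.34) beside 1.35, and Carm1 1.18 (SE 0.25) beside 1.03. For Prmt3 the pair of values was 0.91 and 0.85, for Wdr77 0.88 and 0.77, and for Clns1a 1.16 and 1.23.

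The log2 fold change of Prmt2 was -1.93 (SE 0.60), with the weakest of the 8 calls (limma adjusted p = 0.0449). Prmt6, at 0.43 (SE 0.18, limma adjusted p = 0.0858), did not pass, and its groups overlapped. The number of calls changed with single libraries: leaving out WT library 1, 2 or 3 left 0 of the 9 called, and leaving out WT library 4 left 3. The log2 fold changes moved little in these fits: Prmt5 had 1.66, 1.74, 1.69 and 1.77 without WT libraries 1 to 4, with limma adjusted p from 0.0428 to 0.0581, and Prmt1 had 1.28 to 1.41. The share of all genes called, in either direction, also dropped, to 7.05%, 4.85%, 4.78% and 10%. Without knockout library 3 or 4, 1 of the 9 was called (5.62% and 5.11% of all genes), whereas 9 were called when knockout library 1 was left out and 8 for knockout library 2 (53.2% and 33.1% of all genes). Over all alternatives the adjusted p reached at most 0.0581 for Prmt5 and 0.118 for Prmt2, and at least 4.85e-07 and 2.21e-06.

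Genes around the methyltransferases were grouped in 10 lists of 54 genes, 50 of which were tested. In Eμ-Myc against WT, limma called 37 higher and 5 lower, against the 30.4% and 24.7% of all genes given above. No list gene was called between the knockout group and Eμ-Myc, where 0.00797% of all genes were. In the knockout group against WT, 30 were called higher and 1 lower, against 19.7% and 9.6% of all genes.

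The direct substrates of PRMT5 in the splicing machinery were all higher in Eμ-Myc. These are the Sm proteins encoded by Snrpb, Snrpd1 and Snrpd3 and the Sm-like protein Lsm4, which carry arginine-glycine tails. Snrpd1 went from a mean of 103 ± 3.29 in WT to 386 ± 70 in Eμ-Myc (SD, n = 4), a log2 fold change of 1.88 (limma adjusted p = 6.77e-06). Snrpd3 had 1.33, Snrpb 1.07 and Lsm4 1.06. For the knockout group against WT, 3 of the 4 passed, and Lsm4 (0.89, limma adjusted p = 0.0649) did not. Of 5 other Sm ring proteins, 4 were higher as well: Snrpf (1.49), Snrpd2 (1.29), Snrpg (1.21) and Snrpe (1.14). Snrpn, a Snrpb relative used mainly in brain, had -0.54 (limma adjusted p = 0.117), and was lower in the knockout group than in WT (-1.04, adjusted p = 0.0488, with overlapping groups).

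Of the 9 genes of the SMN complex, which loads the methylated Sm proteins onto RNA, 8 were higher in Eμ-Myc, with a list median of 1.13. Gemin6 had the largest increase (1.62, from 31.7 ± 4.52 to 99.0 ± 15.3, limma adjusted p = 2.22e-05). Gemin7 had a log2 fold change of -0.06 and did not pass (limma adjusted p = 0.757). For the knockout group against WT, 6 of the 9 passed.

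Adaptors and regulators did not move as a block. RIOK1 competes with CLNS1A for PRMT5 and directs it to other substrates, and Riok1 was higher (0.48, limma adjusted p = 0.0043). Coprs, whose product steers PRMT5 to histones, had low values, with means of 7.09 and 8.60, and did not pass (0.24, limma adjusted p = 0.418). BTG1 and BTG2 are antiproliferative proteins that bind PRMT1. Btg1 fell from 390 ± 58.5 to 147 ± 21.3 (log2 fold change -1.40, limma adjusted p = 4.83e-05), and Btg2 fell by 0.44 on the log2 scale (limma adjusted p = 0.0433). None of these 4 passed in the knockout group against WT, though the log2 fold changes there were -1.97 for Btg1 (limma adjusted p = 0.0548, groups not overlapping), -0.80 for Btg2, 0.41 for Riok1 and 0.19 for Coprs. In Eμ-Myc, Btg1, Btg2 and the other list genes called lower moved in the same direction as the T-cell and NK-cell markers given above. The part of those cells in these values was not tested. 2410022L05Rik, the fifth gene of this list of adaptors and regulators, was not analysed here.

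**Figure D5:**
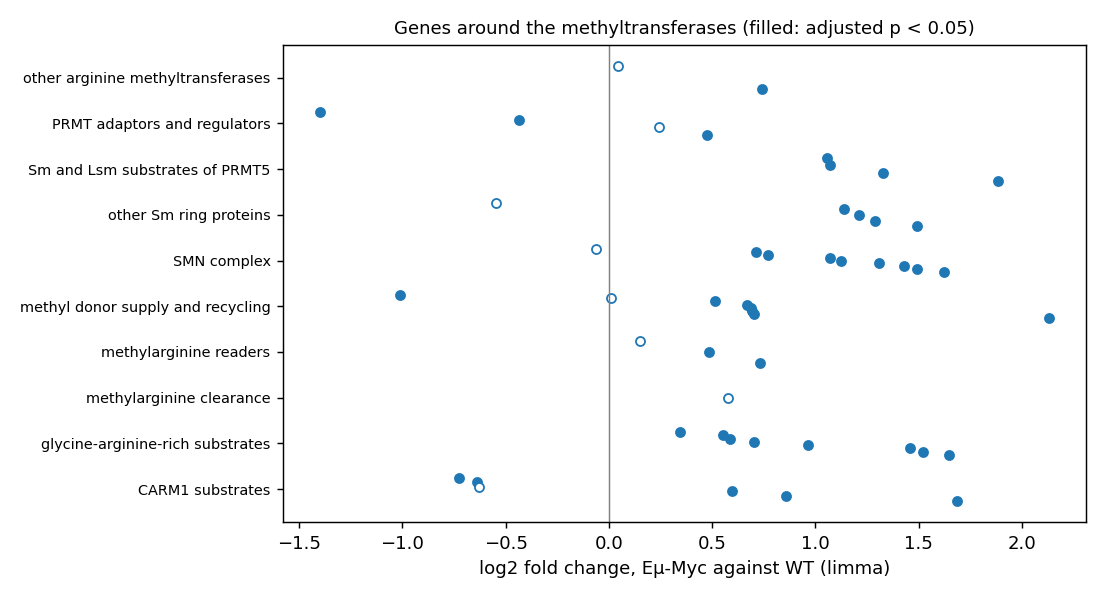
Log2 fold change of Eμ-Myc against WT for the 50 tested genes of the 10 lists, 1 point per gene, filled where the limma adjusted p is under 0.05. The Sm and Lsm substrates of PRMT5 and the glycine-arginine-rich substrates lie wholly right of 0, and the CARM1 substrates lie on both sides.

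Among the remaining arginine methyltransferases, Ndufaf7, which encodes a mitochondrial enzyme for complex I assembly, was higher (0.74, limma adjusted p = 0.00117). Prmt9, the other type II enzyme, had 44.8 ± 3.28 in WT and 46.1 ± 0.633 in Eμ-Myc, and did not pass (0.05, limma adjusted p = 0.69). Prmt8, a brain enzyme, was below the filter and was not tested, and the symbol Prmt10 was not analysed here.

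The list for the methyl donor held genes that make S-adenosylmethionine and remove its product. Of 8 genes, 6 were higher and 1 was lower. Ahcy, which hydrolyses the inhibitory product S-adenosylhomocysteine, had the largest increase of the list (22.6 ± 1.72 to 101 ± 14.6, log2 fold change 2.13, limma adjusted p = 2.95e-06). Ahcyl2, an Ahcy-like gene without that known activity, was lower (-1.01, limma adjusted p = 0.000389). Mat2a, the catalytic subunit of the synthetase, had 0.69 (limma adjusted p = 0.00353), and its regulatory subunit Mat2b had 0.01 (limma adjusted p = 0.94).

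Of 3 Tudor-domain readers of methylarginine, 2 passed. Snd1 (0.73, limma adjusted p = 0.000178) and Tdrd3 (0.48, limma adjusted p = 0.0303) were higher, and Smndc1 had 0.15 and did not pass (limma adjusted p = 0.192). Ddah2, for the breakdown of free dimethylarginine, had 0.58 and did not pass (limma adjusted p = 0.0563), and Ddah1 was not tested.

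All 8 genes for glycine-arginine-rich proteins that PRMT1 and other enzymes methylate were higher in Eμ-Myc (median 0.84). Gar1, a subunit of box H/ACA ribonucleoproteins, had the largest increase (59.8 ± 7.37 to 188 ± 21.6, log2 fold change 1.65, limma adjusted p = 7.51e-06). Of 6 CARM1 substrates, 3 were higher and 2 lower, with a median of -0.02. Smarcc1, a subunit of the BAF chromatin remodeller, had 1.68 (limma adjusted p = 6.28e-05), and Crebbp, a histone acetyltransferase, had -0.73 (limma adjusted p = 0.00617).

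The pattern over the 12 libraries was compared with that of 9650 genes, as the root mean square difference of log2 profiles after each was centred on its own mean. The 5 genes nearest to Prmt5 were Nop58 (0.0484), Nup85 (0.0658), Atic (0.0716), Umps (0.0718) and Wdr12 (0.0769), where the median gene was at 0.872. Nop58 encodes a core protein of box C/D ribonucleoproteins, Nup85 a nuclear pore protein, and Wdr12 a factor for ribosome assembly. Atic and Umps encode enzymes of purine and pyrimidine synthesis. Nop58 averaged 111 over the WT libraries, 370 over Eμ-Myc and 396 over the knockout libraries.

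Each of the other genes had its own nearest gene. Clns1a was nearest to Ilf2 (0.0445), Prmt1 to the helicase gene Ddx39 (0.0491), Carm1 to Usp10 (0.0554), Wdr77 to Kif3a (0.0562) and Prmt6 to Matr3 (0.0701). Prmt7 was nearest to the RNA exosome gene Exosc2 (0.0749) and Prmt3 to Fastkd3 (0.0785). Prmt2 had the largest nearest difference, with Rhof (0.12), whose means were 102, 34.3 and 34.1. Among the 9 genes the closest pair was Prmt1 and Prmt7 (0.081). Prmt5 was nearer to Prmt1 (0.162) and Prmt7 (0.169) than to its partners Clns1a (0.278) and Wdr77 (0.459), and Prmt2 was 1.37 to 1.96 away from all others. These differences describe the 12 libraries, which share the group structure and the split of the knockout group.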

How the data were processed

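The files hold 1 coverage value per gene and library. Per the labels' protocols, polyadenylated RNA was made into directional libraries. The submitters' processing notes name mm10, DESeq and R 4.3.3. The aligner, the counting step and the annotation are not given in the sources used here. The deposited values are a coverage signal with 1 decimal, of which 91.6% above 0 are not whole, so no count test was used and the read depth is unknown. No value was dropped or imputed, and no pair of libraries was identical.

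One factor per library was computed from unweighted trimmed means of log ratios (30% of ratios and 5% of means trimmed). Genes that reached a scaled coverage of 1 in 4 or more of the 8 libraries of a comparison were tested with limma 3.58.1 (trended, robust, two-sided) in R 4.3.3 on log2(scaled coverage + 0.5), and fold changes are on that scale. An adjusted p under 0.05 over all genes was a call. Python 3.11.15, numpy 2.4.6, pandas 2.3.3 and matplotlib 3.10.9 served for the rest. The fits were tested on simulated data, and the outcome is not given here. Positions are from GENCODE M21 (GRCm38) and promoters from RefSeq (GRCm38.p6).

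The genes, lists and tests were chosen with earlier results of these data known. All 9 genes and all genes of lists of up to 5 were named (2 of them matched no symbol). From longer lists the called genes with the largest increase and decrease in Eμ-Myc against WT and a mean of at least 8 were named, and nearest genes also needed a mean of at least 8. Naming Gemin7, Mat2a and Mat2b, the search for CCAAT, and the exact permutation tests of ratios and shares were added after their values or sequences were seen. The replicate numbers 1 to 4 recur in every group. Between the knockout group and Eμ-Myc, deviations of same-numbered libraries correlated across genes with r of 0.657, 0.192, 0.253 and 0.607. Differently numbered libraries were not correlated, so these values do not show that the numbers pair the libraries. The sign-flip test took the numbers as pairs there, and the main limma test did not. The replicate block was an alternative, beside other scalings, filters and pseudocounts, all 12 libraries in 1 fit, quality weights and leaving out each library. The tests measure the spread between these libraries.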

Additional observations from a re-analysis of the deposited data

Results flagged for a closer look

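Prmt1 in Eμ-Myc library 1 was 1111, below the 1365 to 1397 of the other libraries of the group. Its gap to the nearest library was 0.886 of the range of the group, over the critical value of Dixon's test for 4 libraries at the 95% level. Of the 27 groups examined, 1 was over it, and chance gives about 1 in 20. The call of Prmt1 in Eμ-Myc against WT held without that library.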

How the results depend on the processing

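In Eμ-Myc against WT, the 9 genes kept their direction and their call under every alternative run, except that Prmt6 was lost under total coverage scaling (8 called), which moved the median of all genes by -0.18 (-0.15 in the knockout group against WT). In the knockout group against Eμ-Myc, 0 genes were called under every alternative except library quality weights, with 8. The weights, which among the knockout libraries were largest for 3 and 4, turned the sign for Prmt1 (0.44), Prmt6 (0.039) and Clns1a (0.40), and moved Prmt5 to 0.59, Prmt7 to 0.63, Carm1 to 0.52, Wdr77 to 0.49, Prmt3 to 0.27 and Prmt2 to -1.27. Leaving out 1 library at a time gave log2 fold changes from -0.27 to 0.18 for Prmt1, -0.031 to 0.18 for Prmt3, -0.16 to 0.049 for Prmt6, -0.70 to 0.15 for Prmt2 and -0.18 to 0.33 for Prmt5. For Wdr77 they ran from -0.012 to 0.28, for Clns1a from -0.24 to 0.13, for Prmt7 from -0.15 to 0.33 and for Carm1 from 0.0023 to 0.37.

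In the knockout group against WT, leaving out 1 library at a time gave 0 to 9 called genes (4.78% to 53.2% of all genes), and the other alternatives gave 7 to 9 (14.7% to 82.8%). Without a WT library Prmt5 kept a log2 fold change of 1.66 to 1.77. Prmt2 was lost with the replicate block (7 called, limma adjusted p = 0.0563) and without the filter (7 called, 0.0548), and it was not tested under the filter of 10 in every library (7 of 8 called). The numbers are not shown to pair the libraries in any comparison (r from -0.423 to 0.398 there and in Eμ-Myc against WT). The block changed no other call. The cause of each change was not tested. The read depth is unknown, so counting error is not given for any gene.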
